A study of Mus musculus with 18 samples.

Results

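Lysosomal genes were followed through the healing of the mouse carotid artery after wire injury. They were 42 genes chosen by symbol for their known place in the lysosome, with earlier results of these data known. Of the 42, 26 encode enzymes, their soluble partners and lysosomal membrane proteins, and 16 encode subunits of the proton pump of the lysosome. All 42 were found among the 35655 genes of the deposited count table, and 41 passed the filter on low counts together with 10312 genes in all. Atp6v0d2 did not pass and is described by its counts alone.

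The samples were 18 libraries from the carotid artery of wild-type C57/BL6 male adult mice. Of them, 4 are labelled as taken before injury (day 0). The rest were taken 7 (n = 4), 14 (n = 3), 21 (n = 4) and 28 days (n = 3) after wire injury. The study describes this as a deep injury that breaks the internal elastic lamina. Frozen sections were cut out with a laser, so as to hold the outer elastic lamina and the neointima, the layer of cells that grows inside an injured vessel. The RNA was read as MACE-seq, which sequences the 3' end of each polyadenylated transcript, so that a count does not grow with transcript length. The study's methods name the uninjured right carotid as the control, and whether the day 0 vessels came from mice injured on the other side is not given in the sources used here. The same 3 mouse numbers occur on day 0 and on day 21, so some day 0 vessels may come from injured mice. The main fit did not pair these libraries. The study describes the captured samples as pooled, and uninjured vessel without neointima stands for day 0, so injury, the tissue taken and its cell makeup cannot be told apart between day 0 and the later days.

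Lysosomes break down proteins, lipids, glycans and engulfed material with hydrolases that work only in acid. The vacuolar proton pump makes that acid: its V1 sector, in the cytosol, splits ATP, and its V0 sector, in the membrane, carries the protons. Most cells hold lysosomes, and phagocytes such as macrophages and the bone-resorbing osteoclasts hold many, some with cell-specific forms of pump subunits. Many lysosomal genes carry in their promoter the E-box core of the CLEAR element, through which TFEB and its relatives regulate them.

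Where this element lies in the members is shown here because several of them share it by sequence. RefSeq promoter windows (GRCm38.p6, 250 bases before to 50 after the transcript start) were matched for 35 of the 42 members. The E-box CACGTG, which reads the same on both strands, was found in 11 of the 35 (31.4%), against 12.0% of 8168 tested genes with a window and 8.09% of 27025 genes with a window. The longer core TCACGTGA, which contains the E-box, was found in 5 of the 35 (14.3%), against 2.36% of the tested genes and 1.13% of all genes with a window. Among members, the E-box was held by 7 of 24 enzyme and membrane protein windows and 4 of 11 pump windows. Lamp1 held 4 E-boxes before its start, and Mcoln1, Atp6v0b and Gla held 2 each. In the following stretches, read 5′ to 3′ along the gene, capitals mark the E-box or the longer core. They are Lamp1 (chr8:13159080-13159160, plus strand), Mcoln1 (chr8:3500428-3500499, plus strand), Gla (chrX:134601174-134601252, minus strand), Atp6v0b (chr4:117887330-117887385, minus strand) and Atp6v1a (chr16:44139358-44139417, minus strand).
Lamp1: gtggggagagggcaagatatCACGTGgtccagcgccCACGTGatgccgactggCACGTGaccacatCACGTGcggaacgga
Mcoln1: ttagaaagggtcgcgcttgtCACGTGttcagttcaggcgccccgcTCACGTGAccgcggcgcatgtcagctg
Gla: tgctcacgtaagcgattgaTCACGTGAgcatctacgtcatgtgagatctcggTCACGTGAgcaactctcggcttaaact
Atp6v0b: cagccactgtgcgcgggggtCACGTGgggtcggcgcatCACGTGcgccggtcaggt
Atp6v1a: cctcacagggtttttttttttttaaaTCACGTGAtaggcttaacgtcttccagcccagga
None of the 9 members with a window that were higher on day 7 held an E-box, and 11 of the 25 that did not pass held at least 1. The E-box share was 31.4% over the 35 members and 12.0% over the tested genes. Whether the split departs from these shares was not tested. The same split over all genes was not computed, and Atp6v1b2, also higher on day 7, had no window. The letters shown describe the windows, not bound sites.

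**Figure D1:**
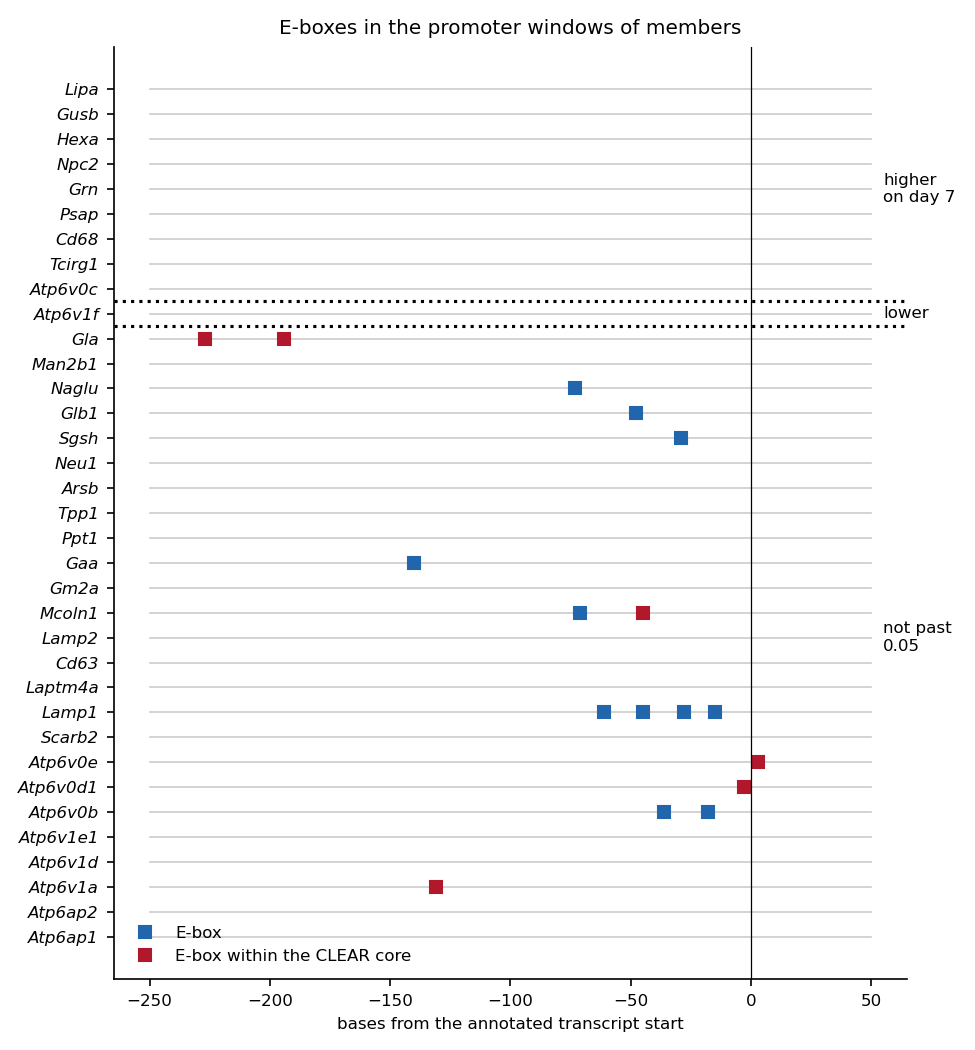
Position of each E-box (squares, red where it lies in the longer CLEAR core) in the promoter windows of the 35 matched members, in bases from the annotated transcript start, with members grouped by their result on day 7 against day 0. None of the 9 members that were higher on day 7 had a square, and 11 of the 25 that did not pass the test had at least 1. The same split over all genes was not computed.

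Levels are given as CPM, a gene's counts per 1000000 counts of the library in the 10312 tested genes, after TMM scaling. Comparisons are given as the log2 fold change from edgeR's quasi-likelihood fit over all 18 libraries. The p-values were adjusted by Benjamini-Hochberg over the 10312 genes and called at 0.05. The libraries held 440675 to 878310 counts over all genes, with a median of 659166. Across them the summed level of 15 macrophage markers went from 130.3 to 523 CPM on day 0 to 4845 to 7042 on day 7, 1233 to 2841 on day 14, 1959 to 3447 on day 21 and 862 to 1248 on day 28. All 15 were called higher on day 7. The 10 smooth muscle markers went from 40393 to 45987 CPM on day 0 to 2058 to 8395 on day 7, all 10 called lower, and reached 26968 to 34637 on day 28. Of 7 neutrophil markers listed, 4 were tested and all 4 were called higher on day 7, as were 4 of the 5 red cell markers. Of 8 endothelial markers, 3 were higher and 1 lower on day 7. Of 8 fibroblast markers, 1 was higher and 4 were lower. In such bulk tissue, fewer cells of a type cannot be told apart from less RNA per cell, and the part of these cell types in the lysosomal results was not tested.

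On day 7 against day 0, 10 of the 41 members were higher and 1 was lower, where 11.3% of all genes tested were higher and 8.53% were lower. The members' median log2 fold change was 0.42, against 0.07 over all genes. The enzymes and membrane proteins held 7 of the 10, with a median of 0.70 over 26 genes, and no member of that group was lower. The proton pump held 3 higher and 1 lower, with a median of 0.07 over 15 genes. In 13 members every day 7 library stood above every day 0 library, and in 2 every one stood below, where 13.6% and 9.71% of all genes did so. The number of members called higher was therefore larger as a share (24.4%) than that of all genes, while the single lower call was a smaller share. The members were chosen with earlier results of these data known, so the difference in shares is a description and not a test.

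**Figure D2:**
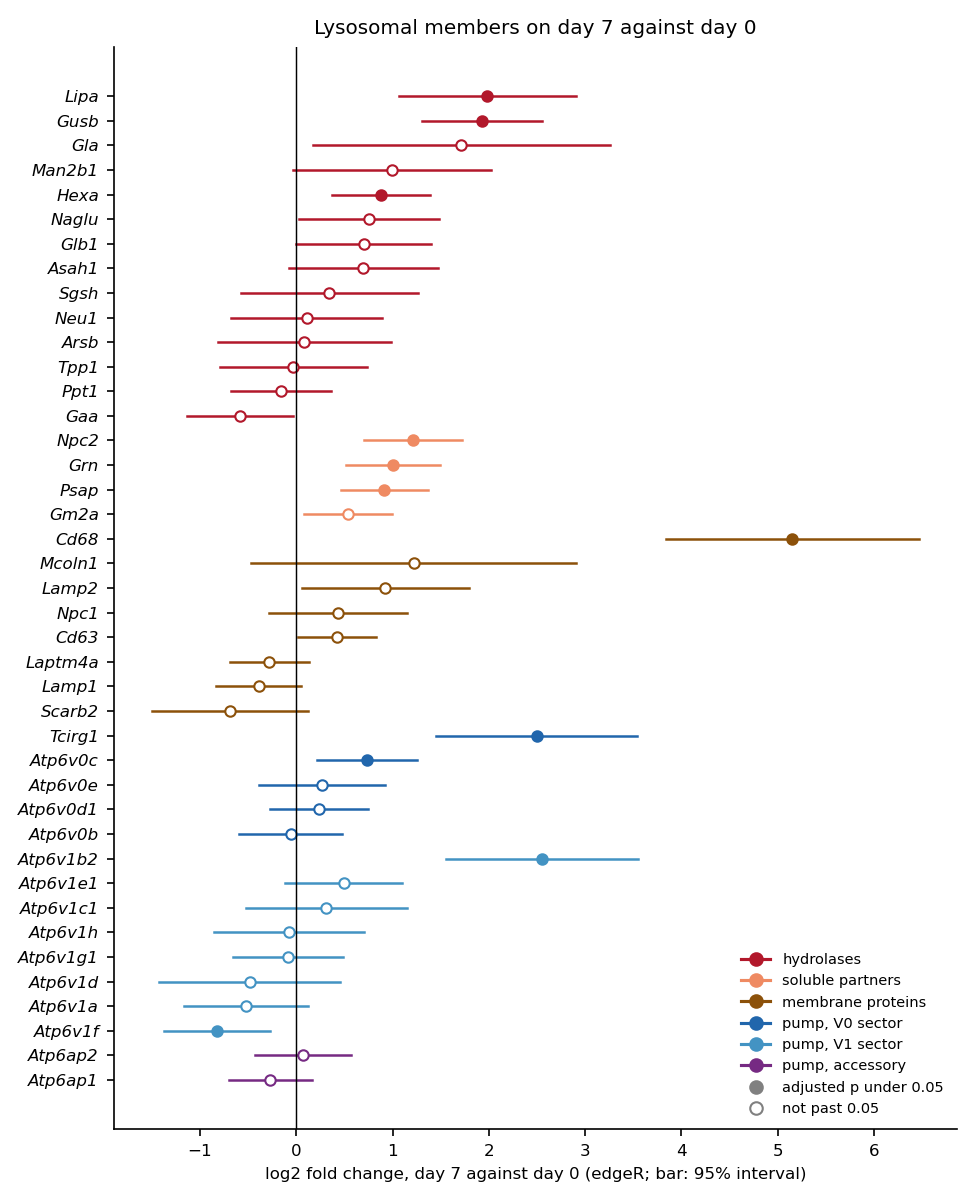
Log2 fold change of the 41 tested members on day 7 against day 0, with its 95% interval, by role; filled points passed an adjusted p of 0.05. The filled points to the right are 7 of the 26 enzymes, partners and membrane proteins and 3 of the 15 tested pump subunits. Atp6v1f is the filled point to the left.

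Of the 14 hydrolases, Gusb, Lipa and Hexa rose on day 7, and the group's median log2 fold change was 0.70. Gusb, the beta-glucuronidase that trims glycosaminoglycans (chr5:130017852-130031903, minus strand, GRCm39), measured 22.3, 45.4, 77.5 and 57.7 CPM in the day 0 libraries and 157, 228, 148 and 241 on day 7. Every day 7 library stood above every day 0 library, 3.80-fold higher in the fit (log2 fold change 1.93, SE 0.30, adjusted p = 5.25e-05). It stayed high on day 14 at 150.4, 131 and 174 CPM (1.58, adjusted p = 0.00285) and on day 21 at 117, 153, 138 and 128 (1.40, adjusted p = 0.00424). On day 28 it was 71.8, 84.3 and 112 CPM, which did not pass against day 0 (0.81, adjusted p = 0.228). Gusb was called on days 7, 14 and 21 with any 1 library left out. Arsb, a sulfatase that also acts on glycosaminoglycans, was not called. The count ratio of Gusb to Arsb was 0.652, 0.731, 7.43 and 1.26 in the day 0 libraries. On day 7 it was 3.36 to 5.96. The days overlapped only through replicate 3 of day 0, where Arsb had 7 counts.

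Lipa, the acid lipase that frees cholesterol and fatty acids from engulfed lipoproteins (chr19:34469712-34522163, minus strand), measured 59.6, 38.3, 32.8 and 43.3 CPM on day 0 and 71.2, 241, 122 and 253 on day 7. The groups did not overlap, and the day 7 libraries varied most, from 71.2 to 253 CPM (log2 fold change 1.98, SE 0.45, adjusted p = 0.0021). Levels were 57.6 to 81.2 CPM on day 14 and 55.6 to 103 on day 21, neither of which passed (adjusted p = 0.501 and 0.319). Hexa, the alpha subunit of beta-hexosaminidase, which splits ganglioside GM2, measured 336, 237, 124 and 218 CPM on day 0 and 329, 465, 437 and 450.4 on day 7. The lowest day 7 library lay just under the highest day 0 library, so the groups overlapped (log2 fold change 0.88, SE 0.25, adjusted p = 0.0122), and without replicate 2 of day 7 the adjusted p was 0.0522. Unlike Lipa, Hexa had its highest mean on day 21, with 604, 547, 451 and 414 CPM (log2 fold change 1.14, SE 0.25, adjusted p = 0.00424), and measured 246, 263 and 300.4 CPM on day 28.

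The other 11 hydrolases did not pass on day 7, and their log2 fold changes ran from -0.58 (Gaa, which splits glycogen) to 1.71 (Gla, alpha-galactosidase A). With the deposited factors in DESeq2, Gaa was called lower on days 7 and 21 (-1.41 and -1.21, adjusted p = 0.00416 and 0.0295). Gla and Man2b1, the lysosomal alpha-mannosidase, stood in every day 7 library above every day 0 library without passing (adjusted p = 0.118 and 0.185). With no filter on low counts Man2b1 was called higher on day 7 (adjusted p = 0.0328). Gla was sparse, at 1.49 to 13.4 CPM on day 0 and 17.9 to 27.4 on day 7. For Tpp1, a peptidase, and Neu1, a sialidase, the 95% intervals were -0.80 to 0.73 and -0.68 to 0.90 on the log2 scale, so that a change of moderate size in either direction was not detectable. Naglu, which removes N-acetylglucosamine from heparan sulfate, is described here because it was called on day 14 only, a choice made after its values were seen. It measured 90.8, 68.1, 95.4 and 47.2 CPM on day 0, 81.9, 104, 61.8 and 257 on day 7 and 203, 138 and 251 on day 14 (log2 fold change 1.39, SE 0.37, adjusted p = 0.0228). All 3 day 14 libraries stood above day 0, and the call was lost without replicate 2 or 4 of day 0 (adjusted p = 0.0648 and 0.0840) or replicate 3 of day 14 (0.157). On day 28 it was still at 154, 167 and 203 CPM (1.21, adjusted p = 0.113).

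The 4 soluble partners, which lack the hydrolases' cutting action but serve them or lipid transport, had the highest median log2 fold change of the 6 role groups on day 7, at 0.96, and 3 of them rose. Npc2, which takes cholesterol out of the lysosome with Npc1, measured 121, 157, 121 and 165 CPM on day 0 and 363, 408, 243 and 292 on day 7 (log2 fold change 1.21, SE 0.24, adjusted p = 0.000798). On day 14 its libraries were at 222, 374 and 264 CPM, still all above day 0 (log2 fold change 1.02, SE 0.26, adjusted p = 0.0161), a call lost without replicate 3 of day 0 (adjusted p = 0.0519) or replicate 2 of day 14 (0.218). Grn, the granulin precursor, measured 359, 234, 207 and 290.0 CPM on day 0 and 474, 717, 542 and 454 on day 7 (log2 fold change 1.00, SE 0.24, adjusted p = 0.00319). Psap, whose product is cut into the saposins that present lipids to hydrolases, measured 1639, 1406, 1228 and 1098 CPM on day 0 and 1645, 2667, 2211 and 3592 on day 7 (log2 fold change 0.91, SE 0.22, adjusted p = 0.00366). Its lowest day 7 library exceeded the highest day 0 library by a few CPM, and its levels on days 14 to 28, from 1130.2 to 1715 CPM, were within or close to the day 0 range. Gm2a, the GM2 activator, measured 201 to 296 CPM on day 0 and 343 to 395 on day 7 and did not pass (0.54, adjusted p = 0.093). In DESeq2 Gm2a was called higher on day 7 (adjusted p = 0.0425).

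Of the 8 membrane proteins, Cd68 alone was called on day 7. Cd68, a heavily glycosylated lysosomal protein widely used as a macrophage marker (chr11:69555037-69557067, minus strand), measured 20.8, 0, 1.49 and 2.62 CPM on day 0 and 189, 279, 169 and 236 on day 7 (log2 fold change 5.15, SE 0.64, adjusted p = 2.66e-06). The largest member change of the series, 35.6-fold, rests on a near-empty day 0, where 1 library had no count, which allows up to 3.59 CPM there. Without replicate 1 of day 0, the highest of that day, the fold was 143 on day 7, and 43.8 and 32.8 in place of 10.9 and 8.15 on days 14 and 21. Cd68 was 49.6, 91.8 and 58.7 CPM on day 14 (log2 fold change 3.44, SE 0.66, adjusted p = 0.00181), 36.7, 62.6, 74.0 and 25.6 on day 21 (log2 fold change 3.03, SE 0.64, adjusted p = 0.00358) and 7.18, 26.5 and 4.79 on day 28, where it did not pass against day 0 (1.06, adjusted p = 0.545). Lamp1, the most used general marker of lysosomes, took the other direction in value, at 831, 778, 714 and 873 CPM on day 0 and 538, 766, 560.2 and 572 on day 7, and did not pass (-0.39, adjusted p = 0.224). The ratio of Cd68 to Lamp1 counts within a library was 0 to 0.0251 on day 0, 0.303 to 0.412 on day 7 and 0.0079 to 0.0505 on day 28. Lamp1 was chosen after its values were seen, so the ratio is no separate evidence of the rise of Cd68.

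Lamp2, the other abundant glycoprotein of the lysosomal coat, varied widely on day 0, at 23.8, 158, 50.7 and 127 CPM, and measured 192, 257, 132 and 108 on day 7 (0.93, adjusted p = 0.134). With no filter on low counts, or without replicate 2 of day 0, Lamp2 was called higher on day 7 (adjusted p = 0.0226 and 0.0400). In the main fit Lamp2 was called on day 21, at 263, 232, 265 and 165 CPM (log2 fold change 1.35, SE 0.42, adjusted p = 0.0435), all 4 libraries above day 0. The day 21 call held in 11 of 18 fits with 1 library left out, and was lost without replicate 1 or 3 of day 0 (adjusted p = 0.102 and 0.129), without replicate 1, 2 or 3 of day 21 (0.0996, 0.0800 and 0.0890), and without replicate 1 of day 7 or replicate 3 of day 14 (0.0526 and 0.0514). Cd63, a tetraspanin of late endosomes and lysosomes, measured 835, 657, 526 and 694 CPM on day 0 and 985, 934, 779 and 939.6 on day 7 (0.42, adjusted p = 0.148). The other 4 membrane proteins ran from -0.69 (Scarb2, a sorting receptor and coat protein of lysosomes) to 1.22 (Mcoln1, a calcium channel) and did not pass. Every day 7 library of Scarb2 lay below every day 0 library (adjusted p = 0.254).

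Within the V0 sector, 2 of the 5 tested subunits rose on day 7. Tcirg1, the a3 subunit found in osteoclasts and macrophages (chr19:3946050-3957917, minus strand), measured 10.4, 7.17, 43.2 and 11.8 CPM on day 0 and 105, 142, 97.7 and 63.0 on day 7 (log2 fold change 2.50, SE 0.51, adjusted p = 0.00081). All day 7 libraries stood above day 0, including its highest library, replicate 3. Without that library the fold was 10.3 in place of 5.65 on day 7, and 9.77 in place of 5.38 on day 21. It was called again on day 21, at 108, 119, 85.5 and 74.5 CPM (log2 fold change 2.43, SE 0.51, adjusted p = 0.00311), while the 19.2, 54.7 and 57.4 CPM of day 14 and 18.7, 69.5 and 84.7 CPM of day 28 did not pass (adjusted p = 0.198 and 0.13). Without replicate 3 of day 0 both of these passed (0.0207 and 0.0253), and without replicate 1 of day 28 the day 28 value passed (0.0223).

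Atp6v0c, the proteolipid that forms most of the rotating ring, measured 177, 354, 335 and 291 CPM on day 0 and 527, 597, 411 and 392 on day 7, with no overlap (log2 fold change 0.73, SE 0.25, adjusted p = 0.0425). Its call held in 7 of the 18 fits with 1 library left out, and the adjusted p was 0.140 without replicate 1 and 0.0829 without replicate 4 of day 0, and 0.132, 0.179 and 0.0552 without replicates 1, 2 and 3 of day 7. It was also lost, at 0.0533 to 0.0654, without any 1 library of day 14 or without replicate 2, 3 or 4 of day 21. Atp6v0d1, the d subunit of most tissues, measured 99.8, 115, 86.4 and 149.6 CPM on day 0 and 148, 135, 138 and 111 on day 7, groups that overlapped (0.24, adjusted p = 0.585). Atp6v0b and Atp6v0e lay at -0.06 and 0.26 on the log2 scale. Atp6v0d2, the d subunit of osteoclasts and some macrophages, had no count in any day 0 library, which allows 3.59 to 4.47 CPM per library, and 0, 0, 21.9 and 9.69 CPM in the day 7 libraries. It was seen in 2 of 3 libraries on day 14 at 0, 1.76 and 5.22 CPM, in 1 of 4 on day 21 and in 1 of 3 on day 28. When no filter on low counts was used, it was called higher on day 7 (adjusted p = 0.0297), on 2 libraries.

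Within the V1 sector, Atp6v1b2 rose and Atp6v1f fell on day 7, and the median of its 8 subunits was -0.08. Atp6v1b2, the B2 form of the subunit that shares the ATP sites with Atp6v1a (chr8:69541297-69566369, plus strand), measured 20.8, 16.7, 11.9 and 9.19 CPM on day 0 and 57.0, 79.1, 93.7 and 118 on day 7 (log2 fold change 2.55, SE 0.48, adjusted p = 0.000404). Later levels were 46.4, 31.8 and 41.8 CPM on day 14, 44.9, 36.3, 24.7 and 23.3 on day 21 and 34.5, 3.31 and 25.6 on day 28. None of these passed against day 0, although all the libraries of days 14 and 21 stood above it (adjusted p = 0.106, 0.155 and 0.692). Its partner Atp6v1a went the other way in value, from 112, 84.9, 103 and 102 CPM on day 0 to 83.7, 89.8, 65.8 and 40.4 on day 7, without passing (-0.52, adjusted p = 0.285). The ratio of Atp6v1b2 to Atp6v1a counts within a library was 0.0897 to 0.197 on day 0, 0.681 to 2.92 on day 7, 0.604 to 0.865 on day 14, 0.395 to 0.500 on day 21 and 0.0870 to 0.571 on day 28. The libraries of days 7, 14 and 21 all stood above those of day 0 in this ratio. Atp6v1a was chosen after its values were seen, so the ratio is no separate evidence of the rise of Atp6v1b2.

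Atp6v1f, a small subunit of the central stalk (chr6:29467717-29470513, plus strand), measured 103, 141, 140.1 and 152 CPM on day 0 and 83.7, 75.5, 57.8 and 85.6 on day 7 (log2 fold change -0.82, SE 0.27, adjusted p = 0.0299). All day 7 libraries stood below day 0, and the call was lost without replicate 2, 3 or 4 of day 0 (adjusted p = 0.0610, 0.0554 and 0.0708) and without replicate 2 or 3 of day 7 (0.0516 and 0.0820). With no filter on low counts it was 0.108. Atp6v1e1, a peripheral stalk subunit, measured 53.6, 88.5, 56.6 and 72.2 CPM on day 0 and 83.7, 117, 77.7 and 103 on day 7 (0.49, adjusted p = 0.284). The 5 other V1 subunits, Atp6v1a among them, ran from -0.52 to 0.31 and did not pass. Neither accessory protein of the pump passed. Atp6ap1, which helps the pump assemble, was 322, 286, 277 and 304 CPM on day 0 and 242, 223, 205 and 315 on day 7 (-0.27, adjusted p = 0.435). Atp6ap2, the prorenin receptor, was 118, 93.2, 80.5 and 78.7 CPM on day 0 and 96.2, 80.9, 97.7 and 113 on day 7 (0.07, adjusted p = 0.894; 95% interval -0.43 to 0.57).

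**Figure D3:**
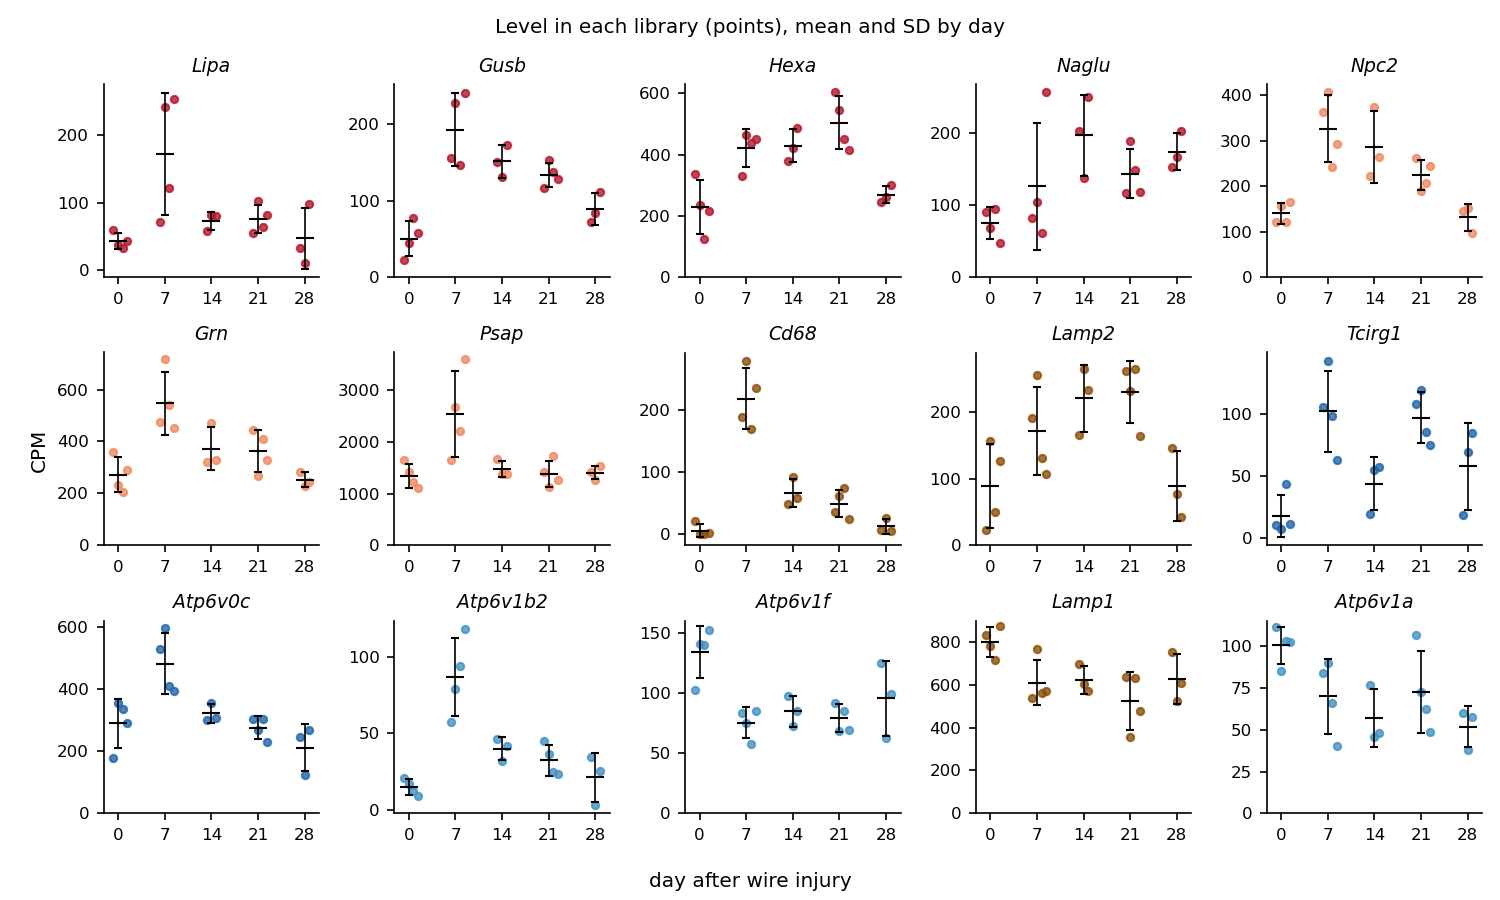
CPM in each library (points, coloured by role as in the plot of day 7 effects) with the mean and SD of each day, for the 13 members called on any day against day 0 and for Lamp1 and Atp6v1a, which were not. Cd68, Lipa and Atp6v1b2 peaked on day 7, Hexa and Lamp2 had their highest mean on day 21, and Naglu on day 14.

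Fewer members were called on day 14, when 5 were higher (Cd68, Gusb, Naglu, Npc2 and Hexa) and none lower, where 4.8% of all genes were higher and 1.42% were lower. The median was 0.15 over members and 0.05 over all genes. All 5 were enzymes, partners or membrane proteins, whose median was 0.24, and no pump subunit was called (median -0.03). Hexa, at 379, 422 and 487 CPM (log2 fold change 0.91, SE 0.26, adjusted p = 0.0372), was called in 9 of 18 fits with 1 library left out. It was lost without replicate 2, 3 or 4 of day 0 (adjusted p = 0.0741, 0.118 and 0.0861), replicate 1 or 2 of day 7 (0.0510 and 0.0543), replicate 2 or 3 of day 14 (0.134 and 0.176), and replicate 3 or 4 of day 21 (0.0528 and 0.0530). The number called on day 14 was 3 without replicate 4 of day 0 or without replicate 2 or 3 of day 14. At an unadjusted p under 0.05, 8 members were higher and 2 lower, and DESeq2 called 5 higher and 0 lower.

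On day 21, 5 members were higher (Tcirg1, Cd68, Hexa, Gusb and Lamp2) and none lower, where 5.92% of all genes were higher and 2.93% were lower. The members' median was -0.06, against 0.07 over all genes, and the list was spread on both sides of 0, with 19 members above and 22 below. Tcirg1 was the only pump subunit among the 5. At an unadjusted p under 0.05, 9 members were higher and 5 lower, and DESeq2 called 6 higher and 2 lower.

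On day 28 no member passed against day 0 in edgeR, where 0.97% of all genes were higher and 0.369% were lower. The median was -0.02 over members and -0.01 over all genes. At an unadjusted p under 0.05, 3 members were higher and 3 lower, and DESeq2 called 0. The smallest adjusted p was that of Naglu (0.113), and the log2 fold changes ran from -1.21 (Atp6v1d) to 1.67 (Tcirg1, 95% interval 0.57 to 2.77). For Psap and Lamp1 the intervals were -0.42 to 0.55 and -0.82 to 0.13. For sparse Gla and Mcoln1 they were -0.14 to 3.12 and -0.30 to 3.25, too wide to show a change of moderate size.

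**Figure D4:**
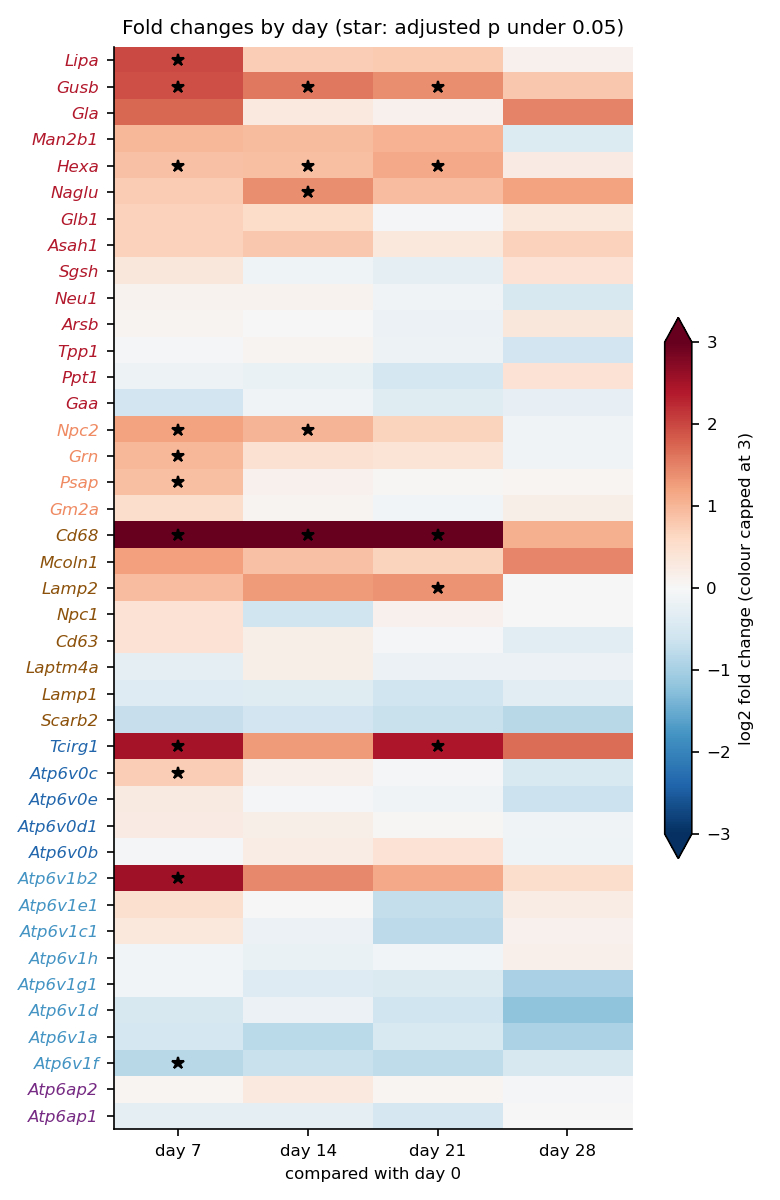
Log2 fold change of each tested member against day 0 on days 7, 14, 21 and 28 (colour, capped at 3), with gene names coloured by role and a star where the adjusted p passed 0.05. Stars number 11, 5, 5 and 0 from day 7 to day 28, and all but 5 of the 21 lie among the enzymes, partners and membrane proteins. That group is also the larger, with 26 of the 41 tested members against 15 for the pump. On day 7, 7 of the 26 and 3 of the 15 were higher, and 1 of the 15 was lower. Over all genes, 11.3% were higher and 8.53% were lower on that day.

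The days after injury were then compared with day 7 itself, a group that these comparisons share and that also serves in the comparison with day 0. No member passed on day 14 against day 7 in edgeR, where 1.33% of all genes were higher and 0.33% were lower. At an unadjusted p under 0.05, 1 member was higher and 8 lower, the smallest adjusted p was 0.108 for Psap, and DESeq2 called 2 lower. The median was -0.14 over members and -0.01 over all genes. On day 21 against day 7, 3 members were lower and none higher, where 3.23% of all genes were lower and 4.03% were higher. Cd68 fell (log2 fold change -2.13, SE 0.52, adjusted p = 0.0105), with every day 21 library below every day 7 library, and without replicate 4 of day 21 its adjusted p was 0.0520. Psap fell with overlapping groups (log2 fold change -0.87, SE 0.22, adjusted p = 0.0134), and its call was lost without replicate 4 of day 7 (adjusted p = 0.0567) or replicate 2 or 4 of day 21 (0.0528 and 0.0585). Atp6v1e1 fell to 37.9, 22.2, 59.2 and 44.2 CPM (log2 fold change -1.22, SE 0.31, adjusted p = 0.0139), was lost without replicate 2 of day 7 (adjusted p = 0.0591) or of day 21 (0.0541), and was 0.247 when each count was scaled by the deposited factors. At an unadjusted p under 0.05, 13 members were lower and 0 higher, and DESeq2 called 6 lower and 0 higher. The number lower was 1 without replicate 2 or 4 of day 21, and 5 without replicate 2 of day 28.

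Day 28 against day 7 gave the largest number of lower calls, 9 of 41, and no higher call, where 8.05% of all genes were lower and 6.4% were higher. The median was -0.38 over members and -0.07 over all genes, and at an unadjusted p under 0.05, 13 were lower and 1 higher, while DESeq2 called 11 lower and 0 higher. Cd68 (log2 fold change -4.09, SE 0.66, adjusted p = 0.000213), Atp6v1b2 (-2.02, adjusted p = 0.0102) and Lipa (-1.86, adjusted p = 0.0124) fell most. Npc2 (-1.31, adjusted p = 0.00199), Atp6v0c (-1.18, adjusted p = 0.00588), Gusb (-1.11, adjusted p = 0.021), Grn (-1.11, adjusted p = 0.00533), Psap (-0.85, adjusted p = 0.0182) and Cd63 (-0.77, adjusted p = 0.0185) fell as well. The day 7 libraries are the same as in the comparison with day 0, so these falls are no separate evidence of the rises given above. Hexa did not pass here (-0.64, adjusted p = 0.116), nor did Tcirg1, which stood at 57.6 ± 34.6 CPM (SD, n = 3) on day 28 and 102 ± 32.4 CPM (SD, n = 4) on day 7 (-0.83, adjusted p = 0.31). Cd68, Npc2, Grn, Atp6v0c and Atp6v1b2 were called with any 1 library left out. The fold was 0.0284 in place of 0.0587 for Cd68 without replicate 2 of day 28, and 0.133 in place of 0.276 for Lipa without replicate 3 of day 28. Cd63, Gusb, Lipa and Psap were each lost in 3 or more such fits (adjusted p up to 0.0967), and only 5 were lower without replicate 2 of day 7 or without replicate 2 of day 28. Without replicate 4 of day 7, 8 were lower and 2 were higher (Naglu, adjusted p = 0.0248, and Ppt1, a thioesterase, adjusted p = 0.0160).

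Summed over their genes, the 26 enzymes and membrane proteins took 5964 ± 438 CPM on day 0 (SD, n = 4) and 8444 ± 1408 on day 7 (n = 4). The sums were 7049.5 ± 356 on day 14 (n = 3), 6290.1 ± 611 on day 21 (n = 4) and 5798 ± 264 on day 28 (n = 3). Every day 7 library lay above every day 0 library in this sum, to which Psap, Laptm4a, Cd63 and Lamp1 give most counts. From day 0 to day 7 the mean of Psap went from 1343 to 2529 CPM and that of Cd63 from 678 to 910. Laptm4a went from 1000 to 824 CPM and Lamp1 from 799 to 609. The 16 pump genes summed to 1749 ± 106 CPM on day 0 and to 2031 ± 151 on day 7, then to 1694 ± 67.2 (day 14), 1612 ± 152 (day 21) and 1474 ± 216 CPM (day 28). The lowest day 7 pump sum, 1856, lay above the highest of day 0, 1824. From day 0 to day 7 the mean V0 sum went from 742 to 1071 CPM. The mean V1 sum was 617.2 and 617.5 CPM, and that of the accessory genes went from 390 to 343 CPM. The ratio of the enzyme and membrane protein sum to the whole pump sum was 3.06 to 4.06 on day 0. On day 7 it was 3.47 to 5.12, a range that overlapped that of day 0. By the day of the highest mean, 11 of 26 enzymes and membrane proteins and 8 of 16 pump genes peaked on day 7. The share of all genes that peaked on day 7 was not computed, so these counts have no background. The pump's 8 include Atp6v0d2, which failed the filter, and a peak by mean can rest on a small difference. The macrophage sum changed much more than either member sum, as given above. Cd68 followed its order of days except between days 14 and 21.

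**Figure D5:**
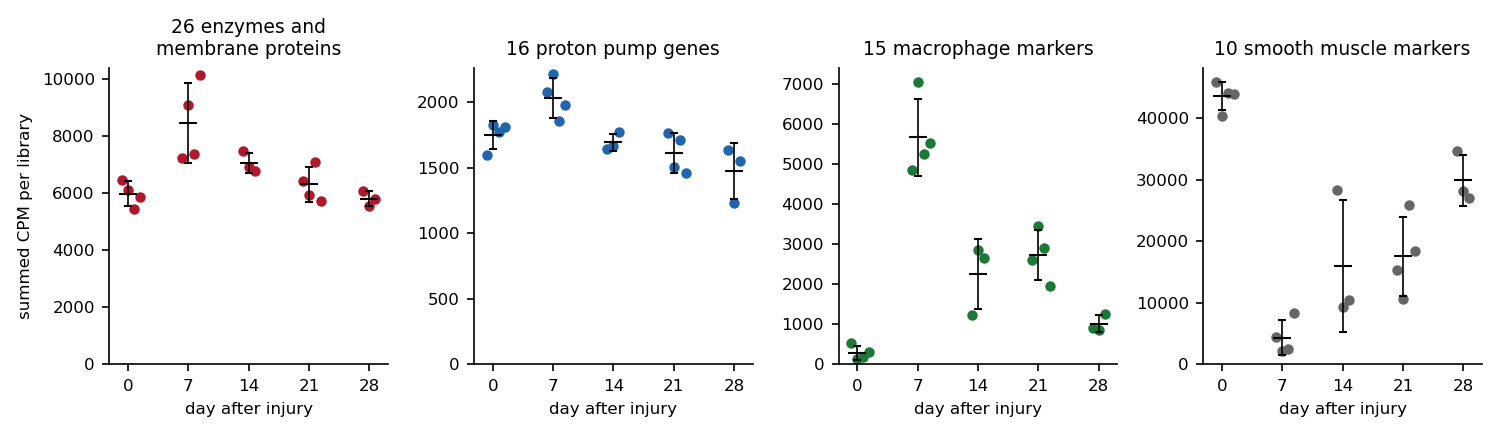
Summed CPM per library (points) with the mean and SD of each day for the 26 enzymes and membrane proteins, the 16 pump genes, 15 macrophage markers and 10 smooth muscle markers; each vertical axis starts at 0 and has its own scale. From day 0 to day 7 the mean enzyme sum went from 5964 to 8444 CPM and the mean macrophage sum from 283 to 5660.3 CPM.

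Other lysosomal genes outside the 42 were read from further lists. Each count stands against the 11.3% of all genes that were higher and the 8.53% that were lower on day 7. Of 25 other hydrolases tested, 6 were higher and 2 lower on day 7. Dnase2a, which digests engulfed DNA, went from a mean of 18.5 to 94.1 CPM (log2 fold change 2.33, SE 0.50, adjusted p = 0.00133), Acp5, the tartrate-resistant phosphatase of osteoclasts and macrophages, from 8.33 to 81.4 CPM (log2 fold change 3.22, SE 0.69, adjusted p = 0.00142), and Pla2g15, a lysosomal phospholipase, from 21.2 to 66.4 CPM (log2 fold change 1.62, SE 0.36, adjusted p = 0.00212). Of 16 other membrane proteins, 3 were higher and none lower. Laptm5, found in blood cells, went from 24.6 to 731 CPM (log2 fold change 4.90, SE 0.39, adjusted p = 1.09e-08) and Litaf from 61.0 to 145 CPM (log2 fold change 1.24, SE 0.34, adjusted p = 0.00929). Of the 9 other pump subunit forms, most of them tissue-specific, 3 were tested and none passed. Their means were, from day 0 to day 7, for Atp6v0e2 29.2 to 6.78 CPM (log2 fold change -2.05, SE 0.78, adjusted p = 0.0675), for Atp6v0a2 50.8 to 40.3 CPM (log2 fold change -0.33, SE 0.38, adjusted p = 0.627) and for Atp6v0a1 42.8 to 39.2 CPM (log2 fold change -0.13, SE 0.50, adjusted p = 0.898). Of 15 genes for sorting and regulation, Igf2r, a receptor that carries hydrolases to the lysosome, was higher, from 45.0 to 99.7 CPM (log2 fold change 1.14, SE 0.28, adjusted p = 0.00496). Lamtor1, an anchor for nutrient signalling, and Sort1, a sorting receptor, did not pass, at 66.3 to 117 CPM (log2 fold change 0.81, SE 0.34, adjusted p = 0.106) and 77.3 to 44.8 CPM (log2 fold change -0.78, SE 0.39, adjusted p = 0.178). Of the 4 osteoclast markers tested, Acp5 and Ctsk were higher, Ctsk from 8.68 to 47.5 CPM (log2 fold change 2.38, SE 0.64, adjusted p = 0.00833). The other 2 did not pass on day 7: Mmp9 was at 2.83 to 34.9 CPM (log2 fold change 3.56, SE 1.31, adjusted p = 0.0592) and Tnfrsf11a at 78.8 to 28.6 CPM (log2 fold change -1.46, SE 0.56, adjusted p = 0.0703), and Tnfrsf11a was lower on days 14 and 21 (-2.64 and -2.15, adjusted p = 0.0156 and 0.0208). Calcr had no count on day 0 or day 7 and Dcstamp none on day 0 and a mean of 0.90 CPM on day 7.

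Some members share exon sequence with a gene on the other strand, and whether counting used the strand is not given in the sources used here. For Gusb this is Vkorc1l1, with a mean of 39.4 CPM on day 0 and 34.8 on day 7, and for Npc2 it is Isca2, with 29.5 and 20.8 CPM. The libraries of day 0 and day 7 overlapped in both neighbours. Vkorc1l1 ran from 19.7 to 58.1 and from 17.8 to 49.8 CPM, and Isca2 from 0 to 51.4 and from 9.97 to 33.9 CPM. Whether these neighbours had a part in the counts of Gusb and Npc2 was not tested. Fam171a2, beside Grn, had 6.73 and 14.8 CPM, and Naa50, beside Atp6v1a, had 130.3 and 127 CPM. In 4 members such a neighbour was above the member itself on day 0: Atp6v1a, Atp6v1d (Eif2s1, 53.2 CPM), Ppt1 (Cap1, 532 CPM) and Gla (Rpl36a, 127 CPM, and Hnrnph2, 78.1 CPM). Reads of such pairs cannot be told apart without strand.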

How the data were processed

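The deposited table of estimated counts had been made by the authors with Salmon 1.9.0 on the mm39 build and holds whole numbers. A deposited normalised signal per gene, made by the authors with DESeq2 1.36.0, was used only to take its scaling factors. Counting by strand is not given in the sources used here. Counts were tested in R 4.3.3 with edgeR 4.0.16: filterByExpr with day as the group, TMM scaling, a quasi-likelihood fit of all 18 libraries with day as the only term, and Benjamini-Hochberg adjustment over the 10312 genes tested. The fit put the common biological coefficient of variation at 0.449. The alternatives were DESeq2 1.42.0, its size factors in edgeR, the deposited factors in DESeq2 (chosen after seeing the data), no filter, only the days compared, a replicate block, a block on shared mouse numbers, plain totals for summed levels, and leaving out each library. No 2 libraries of a day agreed within sampling noise (chi-square per degree of freedom 3.57 to 10.3). The libraries of a day carry different mouse numbers, and 3 numbers occur on both day 0 and day 21. Whether these are the same animals, with the uninjured side as day 0, is not given in the sources used here. How samples were pooled is not given in the sources used here, so p-values measure the spread between these libraries. The limit for a count of 0 is 3 counts a library and covers counting error only.

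The 42 members and all lists were chosen with earlier results of these data known. Values per library are given for the 3 members of each role group with the smallest p on day 7 against day 0, for a member called against its group's direction, and for the member that failed the filter. Naglu, Lamp1 and Atp6v1a fall outside this rule and were chosen after their values were seen. Arsb, used per library in a ratio only, also falls outside it. For other lysosomal lists the 3 smallest p on day 7 are given, except that some genes counted there are not reported here. Reads of MACE-seq start at the 3' end, so levels were not divided by length. E-boxes were sought in RefSeq promoter windows of GRCm38.p6, which differs from the build of the counts, and 3 members had several windows. Gene positions are from GENCODE on GRCm39.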

Additional observations from a re-analysis of the deposited data

Results flagged for a closer look

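In 60 groups of 4 libraries, the values of 2 members had a single library far from the others by Dixon's test, where chance gives about 1 in 20. For Cd68 on day 0, replicate 1 was at 20.8 CPM and the other 3 libraries were at 0 to 2.62. For Tcirg1 on day 0, replicate 3 was at 43.2 CPM and the other 3 were at 7.17 to 11.8. Both members stayed called higher on day 7 without either library.

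Effects against day 0 differed between days for 12 results, by the direct comparison of the later day with day 7 in edgeR. On day 21 the log2 difference from day 7 was -2.13 for Cd68, -1.22 for Atp6v1e1 and -0.87 for Psap. On day 28 it was -4.09 for Cd68, -2.02 for Atp6v1b2, -1.86 for Lipa, -1.31 for Npc2, -1.18 for Atp6v0c, -1.11 for Grn and for Gusb, -0.85 for Psap and -0.77 for Cd63.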

How the results depend on the processing

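The number of members called stayed within 1.5 times on day 7 and day 14 against day 0 and on day 28 against day 7 under every alternative that kept all libraries. On day 21 against day 0, 8 members were called with DESeq2 and 8 with the deposited factors, where edgeR called 5. On day 28 against day 0, 2 were called with no filter (Naglu and Tcirg1). On day 14 against day 7, 2 were called with DESeq2, and 1 with no filter, with only the 2 days compared and with the deposited factors. On day 21 against day 7, 6 were called with DESeq2 and with only the 2 days compared, and 5 with the deposited factors, where edgeR called 3. With 1 library left out, the numbers called ran from 8 to 11 on day 7, 3 to 6 on day 14, 4 to 6 on day 21 and 0 to 1 on day 28 against day 0. Against day 7 they ran from 0 to 1 on day 14, 1 to 5 on day 21 and 5 to 10 on day 28. With replicate number as a block, 10, 4, 5 and 0 members were called against day 0 and 0, 3 and 9 against day 7, and libraries with the same number did not deviate together (median correlation -0.006 over 33 pairs). The 3 mouse numbers shared by day 0 and day 21 (median correlation 0.042) gave 5 calls as a block. Atp6v0c on day 7 was also lost with no filter, with only the 2 days compared and with the replicate block (adjusted p = 0.0507, 0.0540 and 0.0599). Hexa on day 14 was lost with only the 2 days compared and with the block (0.0835 and 0.0753), and Cd63, Gusb, Lipa and Psap on day 28 against day 7 with only the 2 days compared (0.0707, 0.0516, 0.0865 and 0.0808). Of 6919 values over the 41 tested members, 7 comparisons and all alternatives, 207 turned sign, 0 of them called before or after. Among the members chosen by smallest p on day 7 this was Atp6ap2, at -0.014 without replicate 4 of day 0, and over all fits with 1 library left out it ran from -0.025 to 0.20. Calls were lost in 69 of the 6919 values, 58 of them by leaving out a library, and gained in 60, 22 of them by leaving out a library. The cause was not tested. At 440675 to 878310 counts a library, members below about 30 CPM, such as Gla and Mcoln1, rest on few counts.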

Other observations

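Beyond the named genes, Galc, the galactocerebrosidase, was higher on day 7 against day 0 in edgeR. It had a mean of 1.91 CPM on day 0 and 25.7 on day 7 (log2 fold change 3.56, SE 0.93, adjusted p = 0.00695). The 2 other hydrolases that were lower act on glycosaminoglycans, Hyal1 with 63.5 and 12.4 CPM (-2.32, SE 0.71, adjusted p = 0.0209) and Ids with 97.4 and 41.6 CPM (-1.22, SE 0.41, adjusted p = 0.0342). These 3 were named after their values were seen.

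Among the regulators that bind the E-box of the CLEAR element, none of the 3 tested passed on day 7. Tfeb had a mean of 61.5 CPM on day 0 and 39.6 on day 7 (log2 fold change -0.63, SE 0.35, adjusted p = 0.245). Tfe3 had 25.0 and 43.4 CPM (0.79, SE 0.44, adjusted p = 0.242), and Mitf had 15.6 and 17.3 CPM (0.14, SE 0.83, adjusted p = 0.936). Tfec, their relative in myeloid cells, had no count in the day 0 libraries and a mean of 12.3 CPM on day 7, at least 2.99-fold higher when day 0 is set to 3 counts a library, and was not tested because it failed the filter.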
